A study of Homo sapiens with 6 samples.

Results

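The RAB family of small GTPases was examined on 6 expression arrays of MDA-MB-231, a long-established line of human breast cancer cells that is basal and mesenchymal-like. Members were the probe sets whose only gene symbol in the platform annotation was RAB, a number and at most 1 letter. This gave 138 of 54613 probe sets and 57 of 19775 genes. The cells of the GATA3 group had been transduced with a lentivirus for GATA3 and enhanced green fluorescent protein (GFP), and those of the GFP control group with a lentivirus for GFP alone. Cells of both groups were sorted for GFP, plated at equal density and harvested after 2 days, and each group had 3 arrays. GATA3 is a transcription factor of luminal mammary cells, and the title of the series states that it moves basal cells towards a luminal subtype. The promoter that drives the introduced gene is not given in the sources used here, a single cell line was used, and no label shows whether the 3 arrays of a group came from separate cultures. The p-values therefore cover only the spread from array to array, which could be technical. RNA was taken from whole dishes, so fewer cells with a transcript and less of it per cell cannot be told apart.

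RAB proteins are molecular switches of membrane traffic. Bound to GTP and anchored in a membrane by lipid tails, each RAB recruits its own effectors, such as motors, tethers and coat proteins, to particular vesicles or organelles. Exchange factors load the GTP, GTPase-activating proteins (GAPs, most with a TBC domain) trigger its hydrolysis, and escort proteins and GDI carry the GDP-bound form through the cytosol. RAB25, of the RAB11 branch, and RAB17 are known from recycling endosomes of polarised epithelial cells, and RAB25 has been studied in breast and ovarian cancer. RAB27A and RAB27B act in the secretion of granules and exosomes, and RAB32 and RAB38 in building lysosome-related organelles such as melanosomes.

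Promoter sequence was available for 45 of the 57 genes, from RefSeq on the GRCh38.p14 assembly, as windows of 300 bases that run from 250 bases before to 50 after each gene's start. The promoters shown are those of RAB9B and RAB3D, whose rises held in every alternative processing tried, of RAB17, of RAB25, which stayed at the floor of the measurement, and of RAB29, which was lower. The windows lie at chrX:103832208-103832507 (minus strand) for RAB9B, chr19:11339608-11339907 (minus strand) for RAB3D, chr2:237590685-237590984 (minus strand) for RAB17, chr1:156060910-156061209 (plus strand) for RAB25 and chr1:205775433-205775732 (minus strand) for RAB29. Capitals mark matches, on either strand, to the E-box CACCTG, the E-box CACGTG, or a GATA word, which is GATA with A or T before it and A or G after it.
RAB9B: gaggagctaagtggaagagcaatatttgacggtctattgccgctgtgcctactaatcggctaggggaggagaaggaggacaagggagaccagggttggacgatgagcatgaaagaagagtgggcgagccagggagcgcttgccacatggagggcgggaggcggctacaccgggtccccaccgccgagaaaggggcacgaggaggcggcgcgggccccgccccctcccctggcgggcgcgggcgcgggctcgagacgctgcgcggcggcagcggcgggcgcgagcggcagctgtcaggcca
RAB3D: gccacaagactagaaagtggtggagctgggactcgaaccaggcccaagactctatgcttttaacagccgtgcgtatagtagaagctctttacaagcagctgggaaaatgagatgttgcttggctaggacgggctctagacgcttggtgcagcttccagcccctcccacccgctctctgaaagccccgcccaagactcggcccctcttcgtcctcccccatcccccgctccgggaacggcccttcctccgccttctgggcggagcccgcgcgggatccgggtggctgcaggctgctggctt
RAB17: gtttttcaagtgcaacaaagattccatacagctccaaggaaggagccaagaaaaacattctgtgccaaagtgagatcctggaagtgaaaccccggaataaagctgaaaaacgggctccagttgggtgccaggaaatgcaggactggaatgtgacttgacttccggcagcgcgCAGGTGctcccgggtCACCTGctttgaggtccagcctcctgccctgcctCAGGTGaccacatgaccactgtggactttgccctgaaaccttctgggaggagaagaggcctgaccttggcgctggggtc
RAB25: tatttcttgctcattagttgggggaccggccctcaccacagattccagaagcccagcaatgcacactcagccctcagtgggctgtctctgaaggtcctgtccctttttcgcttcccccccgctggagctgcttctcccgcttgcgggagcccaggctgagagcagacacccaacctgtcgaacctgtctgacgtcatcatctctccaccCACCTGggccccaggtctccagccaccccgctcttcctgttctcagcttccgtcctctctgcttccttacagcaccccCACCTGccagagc
RAB29: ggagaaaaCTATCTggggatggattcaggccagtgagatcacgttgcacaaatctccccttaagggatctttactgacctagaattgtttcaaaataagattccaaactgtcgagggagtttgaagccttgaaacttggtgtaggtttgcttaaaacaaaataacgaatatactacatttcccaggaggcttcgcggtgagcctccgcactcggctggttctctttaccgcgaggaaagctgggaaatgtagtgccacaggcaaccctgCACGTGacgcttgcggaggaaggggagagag
RAB17 held 3 copies of CACCTG and RAB25 held 2, while RAB9B and RAB3D held none of the words searched. RAB29 held 1 GATA word and 1 CACGTG.

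Over all 27305 promoters of that length, 20.6% held CACCTG at least once, 3.47% held 2 or more copies and 0.623% held 3 or more. CACCTG is the E-box bound by ZEB1, SNAI1 and related repressors of epithelial genes, and a match in a window does not show binding. Among the RAB promoters 8 of 45 (17.8%) held it, those of RAB17, RAB18, RAB22A, RAB25, RAB3B, RAB4A, RAB5B and RAB5C. GATA words were found in 10 of 45 RAB promoters (22.2%), against 25.5% of all promoters. They were in 0 of the 8 genes higher in the GATA3 arrays, and in RAB29 among the 4 lower genes with a sequence. CACGTG was in 13.3% of RAB promoters and 7.43% of all, and TATAAA in 4.44% and 12%. A GATA word can share bases with an E-box or with TATAAA beside it, each word was counted separately, and these shares are a description without a test. Promoters of the 36 RAB genes measured on the arrays had a median GC content of 68.0%, against 60.7% for the 9 that were not measured and 58.3% for all promoters. RAB17 (54.7% GC, observed over expected CpG 0.31) and RAB25 (60.7% GC, observed over expected CpG 0.36) were lower in CpG than RAB9B (69.0% GC, observed over expected CpG 0.92).

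Expression is given as GCRMA values on what is taken to be a log2 scale, on which a difference of 1 is a doubling. A value of 4 was taken as the detection level, and a probe set was tested if it was over 4 on at least 3 of the 6 arrays. Levels of different probe sets were not set against each other, because probes differ in how brightly they bind. Before the results, 3 features of the arrays bear on them. GATA3 itself read 7.93, 7.94 and 7.32 on the arrays labelled GATA3, against 9.37, 9.35 and 9.45 on the GFP control arrays. This goes against the label, and since probe sequences were not used here, it is not known whether this probe set (209604_s_at) reads the introduced sequence. Every direction below rests on the labels. GATA3 replicate 3 stood apart: it correlated with the other GATA3 arrays at 0.984 and 0.986 over the tested probe sets, against 0.997 between those, and it alone belongs to the second set of raw files. Its value was the lowest of its group in 56 of the 87 tested RAB probe sets. Of the cell markers, all 6 mesenchymal ones were over 4 on every array, with a summed level of 75.9 to 76.1 in the GATA3 group and 78.5 to 79.0 in the GFP control group. Of these, ZEB1, FN1 and VIM were lower, at -1.92, -0.48 and -0.32 (adjusted p 1.64e-05, 0.00243 and 0.0158). CD44 and CAV1, at -0.07 and -0.22, did not pass, and EGFR alone was higher, by 0.33 (adjusted p 0.0278). Of the 5 luminal markers ERBB2 was over 4 on every array and ESR1 barely so (4.02 to 4.45), TFF1 was under 4, and PGR and FOXA1 lay at the floor of 2.16, as did the endothelial marker CDH5. Endothelial markers were at or under 4 on every array (4 of 4), as were 3 of 4 leukocyte markers, with CD3E at the floor, and 3 of 4 melanocyte markers.

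RAB transcripts went both ways in about the share seen over all genes. Of 44 measured RAB genes, 8 were higher in the GATA3 arrays, 6 were lower and 30 did not pass an adjusted p of 0.05. That is 31.8% called, against 29.3% of all 10814 genes, 14.8% higher and 14.5% lower. The groups did not overlap in 22 RAB genes (50%), against 49.5% of all genes. The median change was 0.00 for the RAB genes and -0.02 for all genes on the log2 scale, and the median absolute change was 0.21 for both. RAB17, RAB9B, RAB6B and RAB3D were at least 2-fold higher, where 4.23% of all genes were, and RAB38 was at least 2-fold lower, where 3.05% were. RAB6B was over 4 only on GATA3 arrays, so its place in these counts depended on the rise itself. By probe set, 12 of 87 were higher and 7 lower (21.8%), against 25.3% of all 23785 tested probe sets. Tests were made with limma's moderated test over all tested probe sets with Benjamini-Hochberg adjustment.

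The number of RAB genes called moved with single arrays, as did that of all genes. Without GATA3 replicate 1, GATA3 replicate 2, GFP control replicate 2 or GFP control replicate 3, in turn, 4 RAB genes in place of 8 passed as higher. The RAB genes called in either direction then numbered 9 (20.5%, against 23% of all genes), 8 (18.2%, against 20.6%), 9 (20.5%, against 18.6%) and 8 (18.2%, against 19.2%), in the same order of arrays left out. Without GATA3 replicate 3, the array that stood apart, 11 were higher and 8 lower, which is 43.2% of RAB genes against 35.5% of all genes. All 14 calls remained without that array. RAB2A, RAB5A and RAB9A then joined the higher genes, and RAB35 and RAB8B the lower ones.

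**Figure D1:**
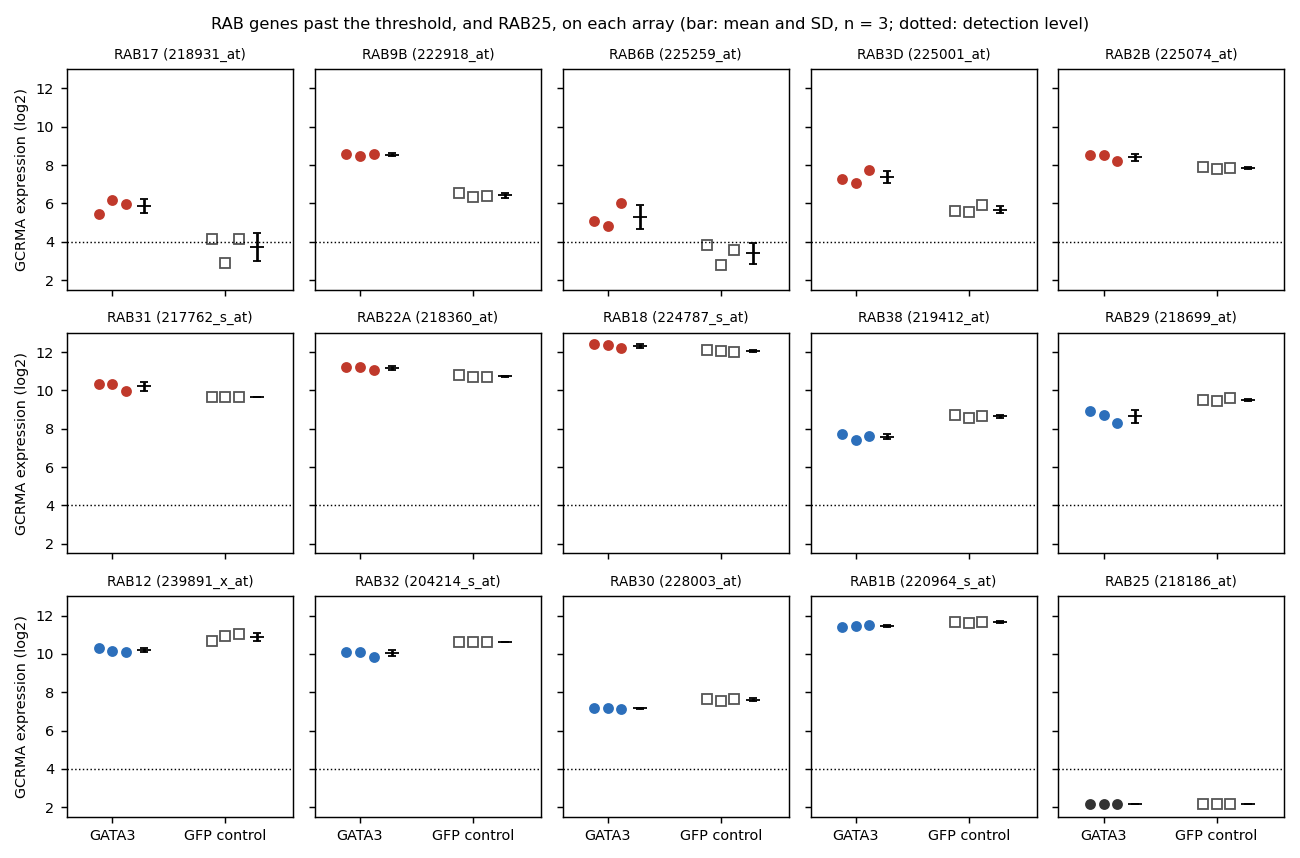
GCRMA expression (log2) on each array for the 14 RAB genes past the threshold and RAB25, with the GATA3 arrays left of the GFP control arrays in each panel. Points are arrays, bars are the mean and SD (n = 3), and the dotted line is the detection level of 4. The groups are apart in all panels but that of RAB25, which reads 2.16 on all 6 arrays.

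RAB25 was not detected in either group. Its only probe set (218186_at) read 2.16, the common floor of the values, on each of the GATA3 arrays and on each of the GFP control arrays. A floor value is a limit of the measurement and does not show that the transcript was absent. In the same arrays the summed level of the 5 epithelial markers was 34.4 to 36.2 in the GATA3 group and 26.4 to 26.8 in the GFP control group. CDH1, EPCAM and CLDN4 were higher, with fitted log2 changes of 5.05, 2.16 and 1.24. ESRP1 and GRHL2 were under the detection level on every array. CDH1 thus gave most of the difference in the sum. It was over 4 only on GATA3 arrays, so CDH1 was at least 10.5-fold higher, and its entry to the test depended on the rise itself.

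The other 12 RAB genes that were not measured also had no probe set over 4 on any array. They were RAB26, RAB33A, RAB37, RAB39A, RAB39B, RAB3B, RAB3C, RAB40A, RAB42, RAB4B, RAB6A and RAB7B. RAB3B and RAB3C, secretory vesicle RABs of neurons and endocrine cells, had 5 and 4 probe sets each. RAB6A (highest value 2.75) and RAB4B (highest value 3.22) are common RABs of the Golgi and of recycling endosomes, and their names also appear on probe sets that carry a further symbol. The rule leaves out 11 such probe sets, so these genes are not shown to be silent.

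Of the 12 measured RABs of recycling and early endosomes, 3 were higher, RAB17, RAB22A and RAB31, and limma called 0 lower (1 at an unadjusted p under 0.05). That is 25% called, against 29.3% of all genes. RAB17, which acts in transcytosis and recycling in polarised epithelial cells, read 5.44, 6.18 and 5.98 on the GATA3 arrays, against 4.16, 2.90 and 4.14 on the GFP control arrays. All 3 GATA3 values lay above the GFP control values, of which that of replicate 2 was under the detection level. The means were 5.87 ± 0.38 and 3.73 ± 0.73 (SD, n = 3 each), a log2 change of 2.13 (SE 0.40, adjusted p 0.0150), 4.38-fold higher. The call was lost without GATA3 replicate 2 (adjusted p 0.0566), with a replicate block (0.0560) and without a filter on low values (0.0738). With a detection level of 6 in place of 4, RAB17 was not tested. RAB17 thus lay near the detection level in the GFP control, where the fold is uncertain. Of the 5 epithelial markers, CDH1, EPCAM and CLDN4 were higher too, while ESRP1 and GRHL2 were under the detection level. Their part in the result was not tested.

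RAB22A, which sorts cargo in early endosomes, read 11.24, 11.21 and 11.04 on the GATA3 arrays and 10.78, 10.70 and 10.70 on the GFP control arrays, with no overlap. The log2 change was 0.44 (SE 0.07, adjusted p 0.00654), and it passed in every fit with 1 array left out. RAB22A's other tested probe sets did not follow, with changes of -0.14 (adjusted p 0.442) and -0.29 (adjusted p 0.164), and the call was lost when the mean of all its tested probe sets was used. RAB31, a relative of RAB22A that links the trans-Golgi network with endosomes, read 10.34, 10.34 and 9.95 on the GATA3 arrays, against 9.63, 9.66 and 9.64 on the GFP control arrays. GATA3 replicate 3 was the lowest of its group but stayed above every GFP control array. All 3 probe sets of RAB31 were higher, by 0.56, 0.56 and 0.55 on the log2 scale (adjusted p 0.0197, 0.0377 and 0.00654). Its call by the brightest probe set passed without GATA3 replicate 3 (adjusted p 0.000590) but in none of the 5 other fits with 1 array left out (up to 0.0733).

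The best-known recycling RABs did not pass. RAB11A, the relative of RAB25 that drives slow recycling in most cells, changed by -0.08 (adjusted p 0.210), with 12.09, 12.01 and 11.98 on the GATA3 arrays and 12.11, 12.13 and 12.08 on the GFP control arrays. RAB4A, of fast recycling, changed by -0.41 (adjusted p 0.0911) with no overlap between the groups. Its other tested probe sets gave -0.30 and -0.65 (adjusted p 0.0870 and 0.0986), also with no overlap. The early endosome RABs RAB5A, RAB5B and RAB5C changed by 0.19, -0.16 and -0.01. By the brightest probe set of each, the other members here that did not pass, RAB35, RAB11B, RAB21 and RAB14, lay between -0.19 and 0.13. Their other tested probe sets, none of which passed, gave -0.65 and -0.33 for RAB35 and -0.48 for RAB11B. Those of RAB21 gave -0.29 and -0.51. That of RAB14 gave -0.15 (adjusted p 0.0506), so its 2 tested probe sets went opposite ways, each with no overlap.

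Among 6 measured RABs of late endosomes and lysosomes, RAB9B was higher, and RAB29 and RAB12 were lower (50% called, against 29.3% of all genes). RAB9B is a close relative of RAB9A, which returns receptors from late endosomes to the Golgi. It read 8.56, 8.46 and 8.60 on the GATA3 arrays and 6.56, 6.32 and 6.39 on the GFP control arrays. The 2 groups were far apart for their spread, at 8.54 ± 0.07 and 6.42 ± 0.13 (SD, n = 3 each). The log2 change of RAB9B was 2.12 (SE 0.09, adjusted p 8.88e-05), 4.34-fold higher, and it kept its call in every alternative tried. RAB9A changed by 0.21 (adjusted p 0.279), with 11.13, 11.02 and 10.67 on the GATA3 arrays against 10.77, 10.78 and 10.64 on the GFP control arrays. The late endosome RAB RAB7A, with a change of 0.12 (adjusted p 0.284), and the autophagy-linked RAB24, with -0.07 (adjusted p 0.761), did not pass either.

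RAB29, which acts at the trans-Golgi network and lysosomes and recruits the kinase LRRK2, read 8.94, 8.71 and 8.28 on the GATA3 arrays, against 9.50, 9.46 and 9.58 on the GFP control arrays. The GATA3 arrays spread over more than 0.5 but all lay below the GFP control arrays. The log2 change of RAB29 was -0.87 (SE 0.17, adjusted p 0.0175), and its other tested probe set also gave -0.87 (adjusted p 0.0173). The call was lost without GATA3 replicate 2 or any single GFP control array (adjusted p up to 0.0720) and was kept without GATA3 replicate 1 or 3. RAB12, known for sending the transferrin receptor to lysosomes, was lower by 0.70 on the log2 scale (adjusted p 0.0108) by a probe set whose suffix, _x_at, marks probes that may bind other transcripts. Its other tested probe set changed by -0.07 (adjusted p 0.618), so the change of RAB12 is uncertain. Without GFP control replicate 2 the call was lost (adjusted p 0.0512).

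RAB32 and RAB38, which deliver enzymes to melanosomes and other lysosome-related organelles, were both lower. RAB38 (219412_at) read 7.70, 7.43 and 7.64 on the GATA3 arrays and 8.70, 8.54 and 8.67 on the GFP control arrays. With means of 7.59 ± 0.14 and 8.64 ± 0.08 (SD, n = 3 each), the log2 change of RAB38 was -1.05 (SE 0.10, adjusted p 0.00134), 2.07-fold lower. RAB32 (204214_s_at) read 10.12, 10.11 and 9.85 on the GATA3 arrays, against 10.64, 10.63 and 10.60 on the GFP control arrays, a log2 change of -0.60 (SE 0.08, adjusted p 0.00561). Neither pair of groups overlapped, and both calls held in every alternative in which the gene was measured. RAB29 belongs to the same branch of the family as RAB32 and RAB38, so all 3 of its measured members were lower. This grouping was made after their values were seen, and 14.5% of all genes were lower. Of the melanocyte markers, MITF read 9.43 ± 0.16 on the GATA3 arrays and 9.15 ± 0.07 on the GFP control arrays (SD, n = 3 each, log2 change 0.28, adjusted p 0.0883), while PMEL, TYR and MLANA were under the detection level on every array.

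**Figure D2:**
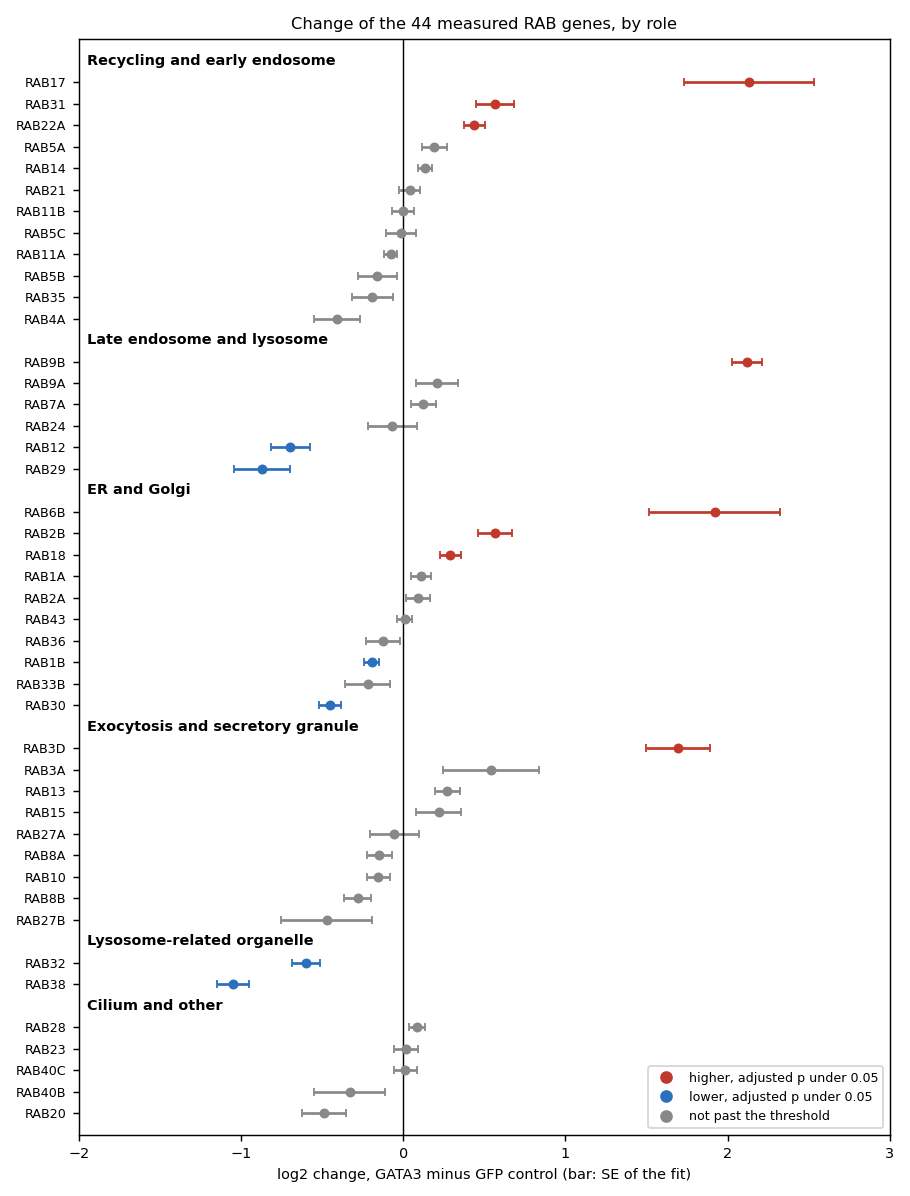
Change of the 44 measured RAB genes between the GATA3 and GFP control arrays (log2), grouped by role, with the standard error of the fit as bars. RAB17, RAB9B, RAB6B and RAB3D stand out on the higher side, in 4 different roles, and RAB38 on the lower side, while most other genes lie within 0.6 of 0.

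Of 10 measured RABs of the endoplasmic reticulum and Golgi, 3 were higher and 2 lower (50% called, against 29.3% of all genes). RAB6B, a form of the Golgi RAB RAB6 found mostly in neurons, read 5.09, 4.84 and 6.03 on the GATA3 arrays and 3.82, 2.79 and 3.58 on the GFP control arrays. All GFP control values lay under the detection level, so RAB6B was at least 2.49-fold higher, with a fitted log2 change of 1.92 (SE 0.41, adjusted p 0.0216). RAB6B met the filter only through its 3 GATA3 arrays. Its entry to the test thus depended on the rise itself, and its adjusted p is no separate support for it. The call was lost without GATA3 replicate 1, GFP control replicate 2 or GFP control replicate 3 (adjusted p up to 0.0678), and its other 2 probe sets were under the detection level on every array.

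RAB2B, a Golgi RAB, read 8.51, 8.54 and 8.21 on the GATA3 arrays, against 7.90, 7.82 and 7.85 on the GFP control arrays (log2 change 0.57, SE 0.11, adjusted p 0.0153). RAB18, of the endoplasmic reticulum and lipid droplets, read 12.41, 12.36 and 12.20 on the GATA3 arrays and 12.09, 12.03 and 11.98 on the GFP control arrays (log2 change 0.29, adjusted p 0.0239). Neither gene's groups overlapped, but both passed in only 1 of the 6 fits with 1 array left out, the one without GATA3 replicate 3 (adjusted p 0.00197 for RAB2B and 0.00627 for RAB18). For RAB18, 3 probe sets with the suffix _s_at were higher, and the other 2 tested ones changed by -0.40 (adjusted p 0.212) and -0.36 (adjusted p 0.260). The call of RAB18 was also lost with the mean of its tested probe sets.

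RAB30, a Golgi RAB, was lower at 7.19, 7.18 and 7.14 on the GATA3 arrays, against 7.66, 7.55 and 7.65 on the GFP control arrays (log2 change -0.45, SE 0.07, adjusted p 0.00709). The spread in each group was small, and the call of RAB30 held with any 1 array left out. It was lost with the mean of its tested probe sets and with a replicate block (adjusted p 0.0510). RAB1B, which carries traffic from the endoplasmic reticulum to the Golgi, was lower by 0.19 on the log2 scale (SE 0.04, adjusted p 0.0285), with 11.42, 11.45 and 11.51 on the GATA3 arrays against 11.68, 11.60 and 11.69 on the GFP control arrays. That is the smallest change called, and it was lost in 8 alternatives, among them those without GATA3 replicate 1, GATA3 replicate 2, GFP control replicate 1 or GFP control replicate 3. RAB1A, of the same step, changed by 0.11 (adjusted p 0.248). By their brightest probe sets, RAB2A, RAB33B, RAB36 and RAB43 had changes between -0.22 and 0.09 and did not pass.

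Of 9 measured RABs of exocytosis, RAB3D was higher and limma called 0 lower (1 at an unadjusted p under 0.05). That is 11.1% called, against 29.3% of all genes. RAB3D, found on secretory granules of exocrine cells, read 7.30, 7.08 and 7.73 on the GATA3 arrays and 5.59, 5.55 and 5.91 on the GFP control arrays. The highest values of both groups were in replicate 3, and the groups lay more than 1 apart. With means of 7.37 ± 0.33 and 5.68 ± 0.20 (SD, n = 3 each), the log2 change of RAB3D was 1.69 (SE 0.20, adjusted p 0.00292), 3.23-fold higher. It kept its call in every alternative tried. The other probe set of RAB3D (208466_at) was under the detection level on every array. RAB3A, of synaptic vesicles, changed by 0.54 (adjusted p 0.235), with 6.44, 6.49 and 7.39 on the GATA3 arrays and 6.32, 6.44 and 5.94 on the GFP control arrays. GATA3 replicate 3 carried most of that difference: the change of RAB3A was 0.23 (adjusted p 0.357) without it.

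RAB27A and RAB27B were detected in both groups and did not pass. RAB27A (209514_s_at) read 9.45, 9.46 and 8.95 on the GATA3 arrays and 9.32, 9.41 and 9.29 on the GFP control arrays, so that GATA3 replicates 1 and 2 lay above every GFP control array and replicate 3 below them. The log2 change was -0.05 (SE 0.15, adjusted p 0.816), and 0.12 (adjusted p 0.161) without GATA3 replicate 3. All 5 probe sets of RAB27A had changes below 0, between -0.74 and -0.04. The groups did not overlap in those at -0.59, -0.74 and -0.54, but none passed (adjusted p 0.0749, 0.0993 and 0.182). RAB27B (228708_at) read 7.11, 7.21 and 6.34 on the GATA3 arrays, against 7.11, 7.27 and 7.69 on the GFP control arrays, a log2 change of -0.47 (SE 0.28, adjusted p 0.266). The 2 other probe sets of RAB27B were under the detection level on every array. RAB8B (-0.28, adjusted p 0.0560) and RAB13 (0.27, adjusted p 0.0527), which carry cargo to the cell surface and to tight junctions, lay just outside the threshold. The other tested probe sets of RAB8B went opposite ways, at 0.36 (adjusted p 0.164, groups not overlapping) and -0.24 (adjusted p 0.481), so its direction is uncertain. RAB10, RAB8A and RAB15 had changes of -0.15, -0.15 and 0.22.

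The remaining RABs, of the cilium and of other roles, included no call in either direction among 5 measured (limma, 0 higher and 1 lower at an unadjusted p under 0.05). Over all genes 29.3% were called. RAB20, an endosomal RAB, came closest, with 7.64, 7.59 and 7.39 on the GATA3 arrays and 8.11, 7.79 and 8.19 on the GFP control arrays (log2 change -0.49, adjusted p 0.0503). RAB23, a regulator of hedgehog signalling at the cilium, changed by 0.02 (adjusted p 0.877), RAB28 by 0.09, RAB40C by 0.01 and RAB40B by -0.33 (adjusted p 0.308).

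Some RAB genes, 4 of 24, had tested probe sets that differed in call. Of the 24 genes with more than 1 tested probe set, RAB31 and RAB29 had all of them called in the same direction. In 4 genes, RAB18, RAB22A, RAB30 and RAB12, some passed and others did not, in 18 none passed, and in 0 did probe sets pass in opposite directions. Of RAB30's 3 tested probe sets all had changes below 0, at -0.45, -0.63 and -0.50, and the last 2 had values near the detection level (adjusted p 0.134 and 0.281). In 7 tested probe sets, of RAB11B, RAB15, RAB21, RAB23, RAB40B and RAB43, at least 3 arrays shared a value within 0.01, and none of them was called.

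**Figure D3:**
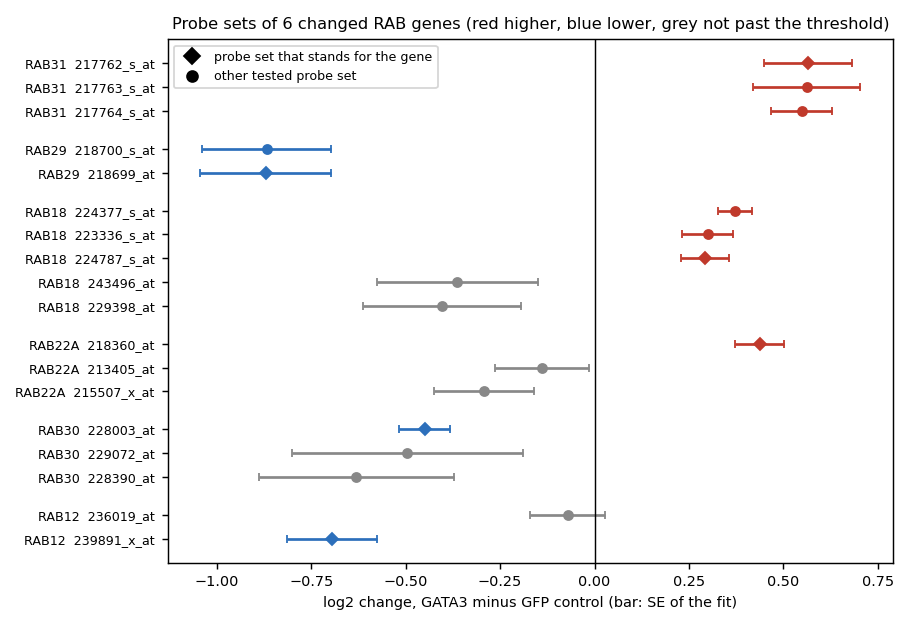
Change (log2, GATA3 minus GFP control, with the standard error of the fit) of each tested probe set of the 6 called RAB genes that have more than 1. Diamonds are the probe set that stands for the gene. All points of RAB31 and RAB29 lie on the same side and passed, while RAB18 and RAB22A also have grey points below 0.

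**Figure D4:**
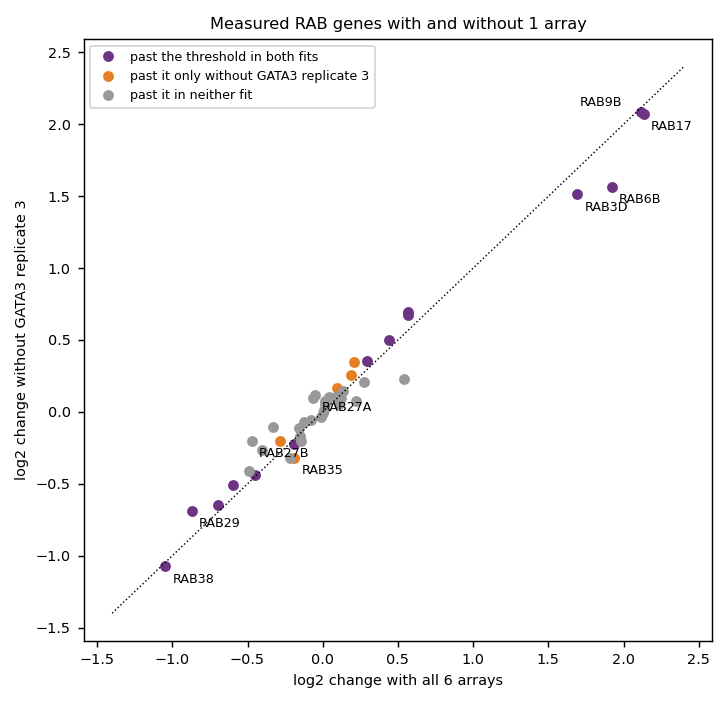
Change (log2) of the 44 measured RAB genes with all 6 arrays (x axis) and without GATA3 replicate 3 (y axis), with the dotted line marking equality. The 14 genes called with all arrays lie near the line, with RAB6B (1.92 and 1.57) the farthest from it, and the genes called only without that array have changes between -0.32 and 0.35.

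The regulators and effectors of RAB proteins gave a share of calls close to that of all genes, with some large single changes. Of 145 listed genes 137 had a probe set and 119 were measured, of which 21 were higher and 13 lower (28.6%, against 29.3% of all genes). Without GFP control replicate 2, 8 partner genes passed as lower, in a fit that called 18.6% of all genes, 932 of them lower in place of 1571. Of 12 measured effectors of RAB11 and RAB25, 5 were higher and 1 lower, and 4 of the 5 were at least 2-fold higher. That is 50% called, against 29.3% of all genes, and 4.23% of all genes were at least 2-fold higher. The lists are short, and none was tested as a set. MYO5B, the myosin motor that moves recycling endosomes and binds RAB11 and RAB25, read 9.07, 9.04 and 9.25 on the GATA3 arrays and 6.37, 6.08 and 6.40 on the GFP control arrays. Its log2 change was 2.84 (SE 0.12, adjusted p 7.68e-05), 7.16-fold higher, by the only probe set of MYO5B over the detection level.

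The related motor MYO5C (1.26, adjusted p 0.00235), the exocyst subunit EXOC6B (1.37, adjusted p 0.00472) and the RAB11-binding protein WDR44 (1.04, adjusted p 0.00187) were higher on the log2 scale too. SH3TC2, a RAB11 effector known from Schwann cells, was higher by 0.86 (adjusted p 0.00233), and RAB11FIP5, an adaptor on recycling endosomes, was lower at -0.96 (adjusted p 0.000866). These last 2 were named after their values were seen.

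Of 8 measured effectors of RAB27 and RAB3, 4 were higher and 1 lower (62.5% called, against 29.3% of all genes). SYTL4 (granuphilin), which docks granules through RAB27, read 9.07, 8.95 and 8.48 on the GATA3 arrays, against 5.74, 6.16 and 5.91 on the GFP control arrays. The groups were more than 2 apart, and the log2 change of SYTL4 was 2.90 (SE 0.19, adjusted p 0.000402), 7.45-fold higher. A dimmer probe set of SYTL4 gave 1.13 (adjusted p 0.0298). EXPH5, a RAB27 effector of keratinocytes and secretory cells, was higher by 1.27 (adjusted p 0.00221), and the RAB3-binding protein RIMS2 by 0.92 (adjusted p 0.00110). RPH3AL (Noc2), a RAB3 and RAB27 effector of endocrine granules, read 4.97, 4.84 and 4.10 on the GATA3 arrays and 5.97, 6.02 and 5.95 on the GFP control arrays, a log2 change of -1.35 (SE 0.24, adjusted p 0.0115). Its call was lost without GFP control replicate 2 (adjusted p 0.0521).

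Of 29 measured exchange factors 4 were higher and 3 lower (24.1% called, against 29.3% of all genes). DENND1B, which activates RAB35, was higher by 1.43 (adjusted p 8.35e-05), DENND2D, of a group that activates RAB9, by 1.24 (adjusted p 0.00105), and DENND1A, another exchange factor of RAB35, by 0.94 (adjusted p 0.0112). The other tested probe set of DENND1A changed by -0.23 (adjusted p 0.175). RAB3IP (Rabin8), which activates RAB8, was higher by 0.75 (adjusted p 0.0220), a call lost without GATA3 replicate 2 or any single GFP control array (adjusted p up to 0.0820). The 3 lower ones, RIN2 (-0.47), MON1A (-0.44) and ANKRD27 (-0.40), act on RAB5, RAB7 and RAB21, and ANKRD27 also binds RAB32 and RAB38. They were named after their values were seen.

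Of 30 measured GAPs, all but RAB3GAP1 of the TBC family, 4 were higher and 4 lower (26.7% called, against 29.3% of all genes). TBC1D2 and TBC1D5, which act on RAB7, were lower at -0.99 (adjusted p 0.000388) and -0.81 (adjusted p 0.00448), as was TBC1D1, known from glucose uptake in muscle (-0.71, adjusted p 0.000519). TBC1D7, a subunit of the TSC complex that restrains mTORC1, was higher by 0.80 (adjusted p 0.000695). Among 6 measured escort and GDI genes 16.7% were called, against 29.3% of all genes. There limma called 0 higher (1 at an unadjusted p under 0.05) and 1 lower. That gene, CHML, which presents new RAB proteins for lipid attachment, was lower by all 3 tested probe sets, at -0.75, -0.77 and -0.83 on the log2 scale (adjusted p 0.0242, 0.0392 and 0.0111). The call of its brightest probe set was lost without any single GFP control array (adjusted p up to 0.0901).

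Of 19 measured effectors of RAB4, RAB5, RAB7 and RAB9, 2 were higher and 2 lower (21.1% called, against 29.3% of all genes). OCRL, an inositol phosphatase of endosomes that binds several RABs, was higher by 0.92 (adjusted p 0.00103), and the RAB7 effector RILP by 0.62 (adjusted p 0.0320). RILPL2, a relative of RILP that binds other RABs, was lower at -0.89 (adjusted p 0.000447), and RUFY1, of RAB4 endosomes, at -0.19 (adjusted p 0.0330). Of 15 measured genes listed as effectors of RAB6, RAB8, RAB10 and RAB13, MICALL1, of recycling tubules, was higher by 0.56 (adjusted p 0.00387). The Golgi protein GOLGA2, whose tie to these RABs was not checked, was higher by 0.31 (adjusted p 0.0381). KIF20A, a RAB6-binding kinesin that also works in cell division, was lower at -0.32 (adjusted p 0.00482). In this last list 20% were called, against 29.3% of all genes. With 1 array left out, the calls of RILP (without GATA3 replicate 2 or 3, or GFP control replicate 2 or 3), GOLGA2 (without GATA3 replicate 1 or 2, or GFP control replicate 1 or 3) and RUFY1 (in all such fits but 1) were lost.

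**Figure D5:**
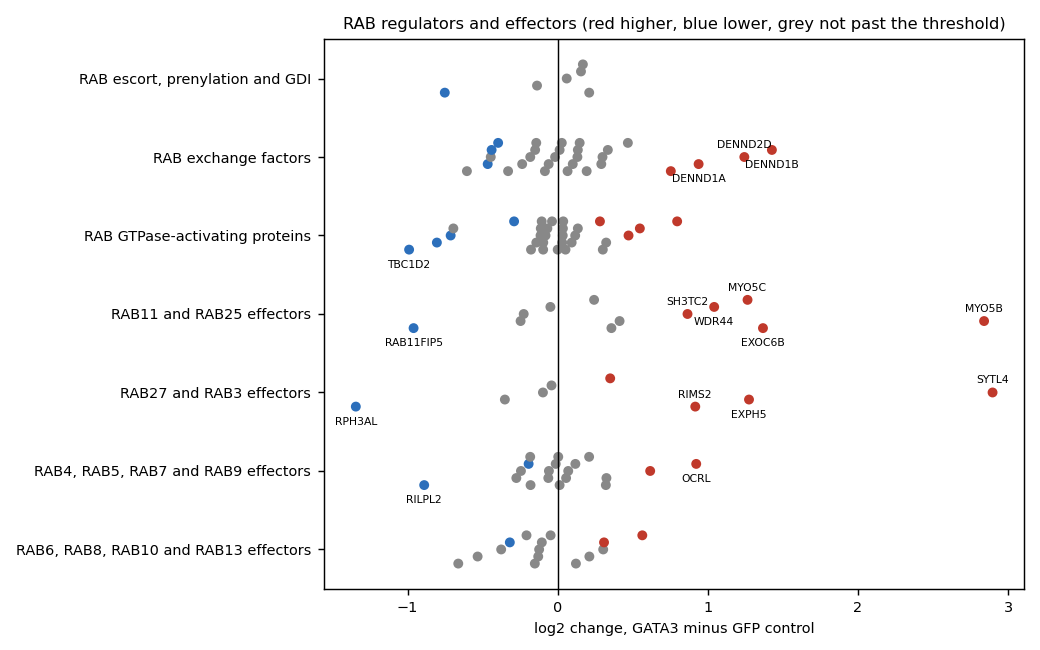
Change (log2, GATA3 minus GFP control) of the 119 measured regulators and effectors of RAB proteins, by list, each point a gene. The largest changes are those of SYTL4 and MYO5B, at 2.90 and 2.84, and most genes of every list lie within 1 of 0.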

How the data were processed

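Total RNA was labelled with biotin and hybridised to 6 Affymetrix arrays of 54675 probe sets. The deposited log2 values were made by the authors with GCRMA, per the submitters' processing notes (no version is given). The scale is not stated, and log2 is inferred from their range of 2.16 to 15.8. GCRMA leaves many dim probe sets at a common floor. Precision is limited by the number of arrays.

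No further scaling was applied. The 62 control probe sets were left out, and 23785 probe sets over 4 on at least 3 of 6 arrays were tested, 30828 were not. The groups were compared with limma (3.58.1, R 4.3.3), using lmFit and then eBayes with an intensity trend and no covariates, adjusted by Benjamini-Hochberg over all tested probe sets (threshold 0.05). The steps were tested on simulated data. Symbols came from the platform annotation (41091 probe sets with 1, 1801 with several, 11721 with none), and 0 member symbols needed an update. Each gene was read from the tested probe set whose mean over the 6 arrays was highest. Where every array of a group was at or under 4, the fold is a lower bound of the brighter mean against 4. Named were RAB25, RAB27A and RAB27B, up to 12 RAB genes in each direction past the threshold, and up to 4 called members of each partner list. Members, roles and lists were chosen with earlier results of these data known. Alternatives were other filters, normalizations, array weights, probe set choices, a replicate block and leaving out each array.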

Additional observations from a re-analysis of the deposited data

Results flagged for a closer look

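Among the 51 RAB probe sets that were not tested, 3 read over the detection level of 4 on a GATA3 array and above every GFP control array, all 3 on GATA3 replicate 3. The RAB2A probe set 221960_s_at read 5.50 there, against 2.17 on its highest GFP control array. The RAB7A probe set 223760_s_at read 5.10, against 3.95 on its highest GFP control array. The RAB29 probe set 243777_at read 4.10, against 3.85 on its highest GFP control array. In none of these 3 did another GATA3 array exceed 4. They were noticed because the comparisons above do not use them, and GATA3 replicate 3 is also the array that stood apart from its group.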

How the results depend on the processing

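RAB9B, RAB3D and RAB38 kept their call under every alternative. Each has only 1 tested probe set, so the alternatives in the choice of probe set used that same one. RAB32 kept its call wherever it was measured, and RAB22A in all but the mean of its probe sets. By its brightest probe set RAB27A changed sign, to 0.12 without GATA3 replicate 3 and 0.11 with array weights, and passed in neither. With 1 array left out it ranged from -0.14 to 0.12. Counts moved as follows, higher before lower. With array weights, whose estimation stopped before it converged, they were 5195 and 6642 of all probe sets, 22 and 20 RAB probe sets, 13 and 12 RAB genes, and 41 and 28 partner genes. The share called was then 56.8% of RAB genes, against 53.6% of all genes. Without a filter on low values, 1767 of all probe sets were lower, 5 RAB probe sets higher and 3 lower, and 3 RAB genes higher and 3 lower. That fit called 10.5% of RAB genes, against 10.2% of all genes. RAB12, RAB17, RAB18, RAB1B, RAB29, RAB2B, RAB31 and RAB6B lost their calls in it. With probe sets ending in _at alone 3 RAB genes were lower, in a fit that called 27.3% of RAB genes and 28.4% of all genes. With quantile normalization 12 RAB probe sets and 9 RAB genes were lower, where 40.9% of RAB genes and 34.5% of all genes were called. With the mean of all tested probe sets 21 partner genes were lower, as were 1987 of all genes in place of 1571. With 1 array left out, all probe sets ranged from 1796 to 3581 higher and 1801 to 3752 lower, RAB probe sets from 6 to 15 higher and 5 to 10 lower, RAB genes from 4 to 11 higher and 4 to 8 lower, and partner genes from 16 to 30 higher and 8 to 18 lower. The share called then ran from 18.2% to 43.2% of RAB genes and from 18.6% to 35.5% of all genes. Replicate numbers did not pair the arrays (correlations of deviations -0.13, 0.16 and -0.11, with 2 of 6 arrays closest to their own number). With a replicate block, 2106 of all probe sets, 4 RAB probe sets and 2 RAB genes were lower, and 10 RAB probe sets and 7 RAB genes higher. The block fit called 20.5% of RAB genes, against 20.6% of all genes. RAB12, RAB17, RAB1B, RAB29 and RAB30 lost their calls in it. Signal near the detection level limits RAB17 and RAB6B, and 3 arrays per group limit all tests.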
